A study of Mus musculus with 16 samples.

Results

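The results below describe how far the response of oligodendrocytes to perinatal bisphenol A (BPA) differed between female and male mouse pups. For each gene the BPA minus control change of XX (female) pups was taken minus that of XY (male) pups on the log2 scale, so a positive value means that BPA females stood higher, relative to female controls, than BPA males did relative to male controls. Genes were taken from the autosomes alone, which gave 15740 genes of the 16339 that passed a filter on low counts, from 32207 in the deposited table. X-linked, Y-linked, mitochondrial and unplaced genes, 599 of those tested, were left out. All 16 libraries of the series entered: 4 male controls, 4 female controls, 4 BPA males and 4 BPA females. All pups were OF-1 mice, an outbred strain, and each library came from brain cells sorted with magnetic beads for the O4 surface antigen on postnatal day 16. BPA pups were exposed through their mothers' drinking water from gestational day 7 and through lactation, at an estimated 40 µg/kg/day as labelled, and control pups carry a dose of 0. The study's design text also gives 250 µg/mL in the water, and the 2 figures could not be reconciled here, so the dose received is uncertain. Litters are not labelled, and pups of 1 litter share their exposure, so p-values measure the spread between libraries and may be too small.

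O4 marks late oligodendrocyte precursors and the cells that mature from them, which wrap axons in myelin. In the rodent brain this maturation is at its height in the early postnatal weeks, and precursors, newly formed cells and myelinating cells differ in large sets of genes. BPA is a plasticizer that binds estrogen receptors weakly and has been reported to interfere with thyroid hormone signalling, and both hormone systems act on oligodendrocyte maturation.

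Total counts ranged from 23603816 to 42575326 per library, and in 16 of 16 libraries the sex on the label was borne out by Xist and genes of the Y chromosome. Myelin genes marked all of them: the level of Mbp, for myelin basic protein, was 16444 to 19806 CPM (read counts scaled to library size, not to gene length) in male controls, 15529 to 19613 in female controls, 12984 to 19877 in BPA males and 16552 to 18825 in BPA females. Markers of other cell types were also present, and 1 library stood apart in them. The mean log2 CPM of 20 astrocyte genes was 8.60 in male BPA 2 and 5.81 to 7.26 in the other 15 libraries, and male BPA 2 differed from the other BPA males by a chi-square per gene of 89.05 to 133.4, against 16.55 to 33.19 in the other pairs within groups. The mean of 17 microglial genes was highest in female BPA 1, at 6.95, and 5.01 to 6.66 in the others. That library also held 46 counts of the Y-linked gene Ddx3y, against 0 to 4 in the other 7 females. Among males, male BPA 4 held 9223 counts of Ddx3y, against 2663 to 3835 in the other 7, at a total of 38429705. The reason was not tested. Values without male BPA 2 or female BPA 1 are given below for the comparisons and gene lists that these 2 libraries move most.

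No autosomal gene was called for the difference of BPA effects (0 of 15740, 0%, limma-voom with Benjamini-Hochberg adjustment). The smallest adjusted p was 0.878, and an unadjusted p under 0.05 was reached by 735 genes (4.67% of those tested), 481 with a higher (3.06%) and 254 with a lower value (1.61%). These shares are near the 5% that the threshold itself allows, so the genes named below are values of these 16 libraries and not calls. The median of all autosomal genes was -0.02 on the log2 scale, and 46.1% were above 0. Precision was limited by 4 libraries a group: the 95% confidence interval of the difference reached 0.41 on the log2 scale to either side in the median gene, and under 1 (2-fold) in 80.2% of all autosomal genes and in 96.3% of the 8629 genes above 10 CPM.

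The same number can arise in more than 1 way, because the difference is also the female minus male difference among BPA libraries minus that among controls. A gene was placed with unlike controls where the control difference made up over 0.7 of the value, with unlike BPA levels where it made up under 0.3, and with both in between. This share carries a sign. Where the sexes differ in the same direction in controls and BPA libraries, it exceeds the whole or is negative. Such genes fall under unlike controls or unlike BPA levels, so the other side need not be alike. Of the 735 genes, 73 (9.93%) had unlike controls and 272 (37.0%) unlike BPA levels, while 390 (53.1%) drew on both. Over all autosomal genes the same rule gave 32.6%, 43.8% and 23.6%. Genes with unlike controls were mostly low in level, with a median of 1.43 CPM, against 16.96 CPM for unlike BPA levels and 10.0 CPM for both. Their median absolute difference was 1.03 on the log2 scale, against 0.46 and 0.50. The sorting follows from the contrast that chose the 735 genes, so these shares are a description and no test. When the female minus male tests themselves were used, 142 of the 735 passed an unadjusted p under 0.05 in controls alone, 391 in BPA libraries alone, 18 in both and 184 in neither. Over all autosomal genes that threshold was passed by 444 in controls (2.82%) and 983 in BPA libraries (6.25%).

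**Figure D1:**
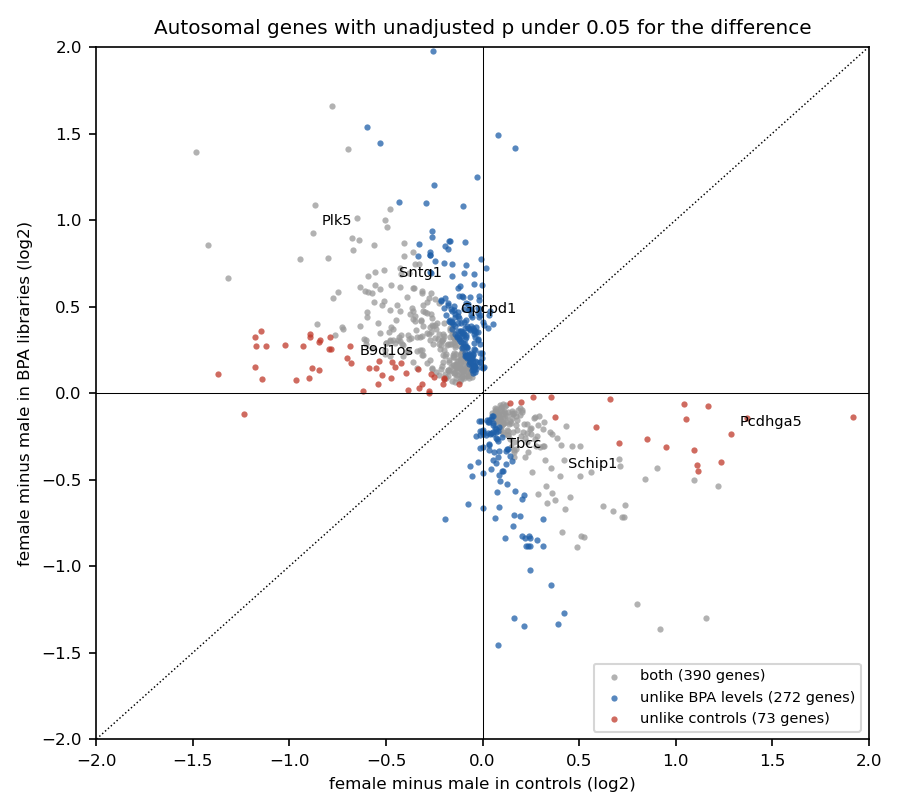
Female minus male difference in controls (x axis, log2) and in BPA libraries (y axis, log2) for the autosomal genes with an unadjusted p under 0.05 for the difference of BPA effects, 1 point per gene, with 13 genes beyond the plotted range of 2 to either side. Grey points (390 genes) lie away from both axes, blue points (272) near the vertical axis and red points (73) near the horizontal one; the dotted line marks no difference of BPA effects.

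Seen by sex, most of the 735 genes had values of opposite sign in males and females. BPA females were above and BPA males below their controls in 437 genes (59.5%), the reverse held in 232 (31.6%), and in 66 (8.98%) both sexes had the same sign, against 54.5% with the same sign over all autosomal genes. An unadjusted p under 0.05 for BPA against control was reached in males alone by 356 of the 735, in females alone by 152, in both by 20 and in neither by 207. Over all autosomal genes that threshold was passed by 1250 in males (7.94%) and 713 in females (4.53%). Adjusted, limma-voom called 1 autosomal gene for BPA in males, 0 in females, 1 for female minus male in controls and 0 in BPA libraries. With 1 library left out it called 0 for BPA in males, except without female control 4, where it called 3. In controls it called 0 without female control 1, 2 or 3. Applying the rule of shares to the 2 BPA effects placed 258 genes (35.1%) with the male effect, 82 (11.2%) with the female effect and 395 (53.7%) with both, against 45.1%, 33.8% and 21.1% over all autosomal genes. Where the rules on exposure and on sex both pointed to 1 group, that group was male BPA in 111 genes (15.1%), female BPA in 31 (4.22%), male control in 24 (3.27%) and female control in 7 (0.952%), and in 562 (76.5%) no single group carried the value. Over all autosomal genes these shares were 19.0%, 16.0%, 16.3%, 11.4% and 37.3%. Each single group was less frequent among the 735 than over all genes. The difference itself chose the 735, so these shares and the signs above are a description and no test. Each sex's comparison shares its 8 libraries with the difference, so these counts are a description.

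The genes below were named by a rule on rank and class, and each library's value is given in the order of replicates 1 to 4. Plk5, a divergent polo-like kinase of the brain, had the smallest p of all autosomal genes and drew on controls and BPA levels alike. It was read at 1.81, 1.54, 1.99 and 1.48 CPM in male controls and at 0.814, 0.523, 0.402 and 0.760 CPM in BPA males. In females it was read at 0.981, 1.002, 0.717 and 1.01 CPM without and 0.867, 1.49, 1.20 and 1.19 CPM with BPA. Male controls and BPA males did not overlap, and neither did the controls of the sexes, while female controls and BPA females did. The difference was 1.80 ± 0.33 on the log2 scale (SE), from -1.47 in males and 0.34 in females, with a limma-voom p of 5.38e-05 and an adjusted p of 0.878. Over the fits with 1 library left out it ranged from 1.64 to 1.95. At about 1 CPM it is one of the lowest genes named, and none of its 50-base transcript words occurs in another gene.

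Dzip3, an RNA-binding ubiquitin ligase, crossed over between the sexes. Its level was 47.8, 45.9, 44.4 and 48.6 CPM in male controls and 35.8, 42.7, 43.2 and 41.3 CPM in BPA males. In females the controls were at 39.9, 42.4, 40.9 and 40.4 CPM and the BPA pups at 47.5, 47.4, 49.8 and 45.2 CPM. Male controls and BPA females occupied the same upper range, and BPA males and female controls the lower one, with no overlap between controls and BPA libraries within either sex. The difference was 0.42 ± 0.08 (limma-voom p 0.000134).

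Triobp, which bundles actin filaments, and Rnf135, a RING-type ubiquitin ligase of antiviral RNA sensing, crossed in the other direction. Triobp was at 33.9, 33.8, 33.2 and 34.3 CPM in male controls and 41.9, 40.6, 38.2 and 42.4 CPM in BPA males, which did not overlap. In females it was at 37.1, 34.5, 39.4 and 37.1 CPM in controls and 33.7, 33.2, 33.2 and 39.01 CPM in BPA pups, where female BPA 4 lay among the controls. The difference was -0.37 ± 0.08 (limma-voom p 0.000401). The range of Rnf135 was 15.02 to 19.4 CPM in control males and 18.03 to 22.3 CPM after BPA, and in females 19.4 to 22.4 CPM in controls and 15.8 to 18.7 CPM after BPA. The males overlapped, the females did not, and the difference was -0.57 ± 0.13 (limma-voom p 0.000460).

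The other named genes that drew on both parts had values from -0.88 to 1.10. Ddt, a tautomerase related to macrophage migration inhibitory factor, had a difference of -0.58 ± 0.14, and its BPA females, at 4.87 to 5.79 CPM, lay below all female controls, at 6.08 to 7.80 CPM. For Schip1, a partner of the schwannomin protein, it was -0.88 ± 0.24, with female controls at 4.57 to 4.89 CPM and BPA females at 3.17 to 4.13 CPM. Positive differences belonged to Sntg1 (1.10 ± 0.28), a syntrophin scaffold protein, Scn3a (0.79 ± 0.22), a voltage-gated sodium channel, Bend4 (0.75 ± 0.21), a BEN-domain protein, Zfp469 (0.75 ± 0.21), a zinc finger protein, and Dscaml1 (0.43 ± 0.12), an adhesion molecule of the immunoglobulin superfamily. In all 5, the male effect was below 0 and the female effect above it. BPA males lay below all male controls in Bend4 (2.82 to 3.76 against 4.75 to 5.74 CPM), Zfp469 (18.1 to 21.1 against 26.4 to 32.05 CPM), Dscaml1 (53.1 to 70.9 against 77.2 to 88.4 CPM) and Scn3a (5.85 to 8.63 against 8.71 to 12.6 CPM), and overlapped them in Sntg1 (1.57 to 2.85 against 2.76 to 3.89 CPM). Other genes hold 25.3% of the transcript words of Ddt and 38.2% of those of Schip1, so their counts are less certain.

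**Figure D2:**
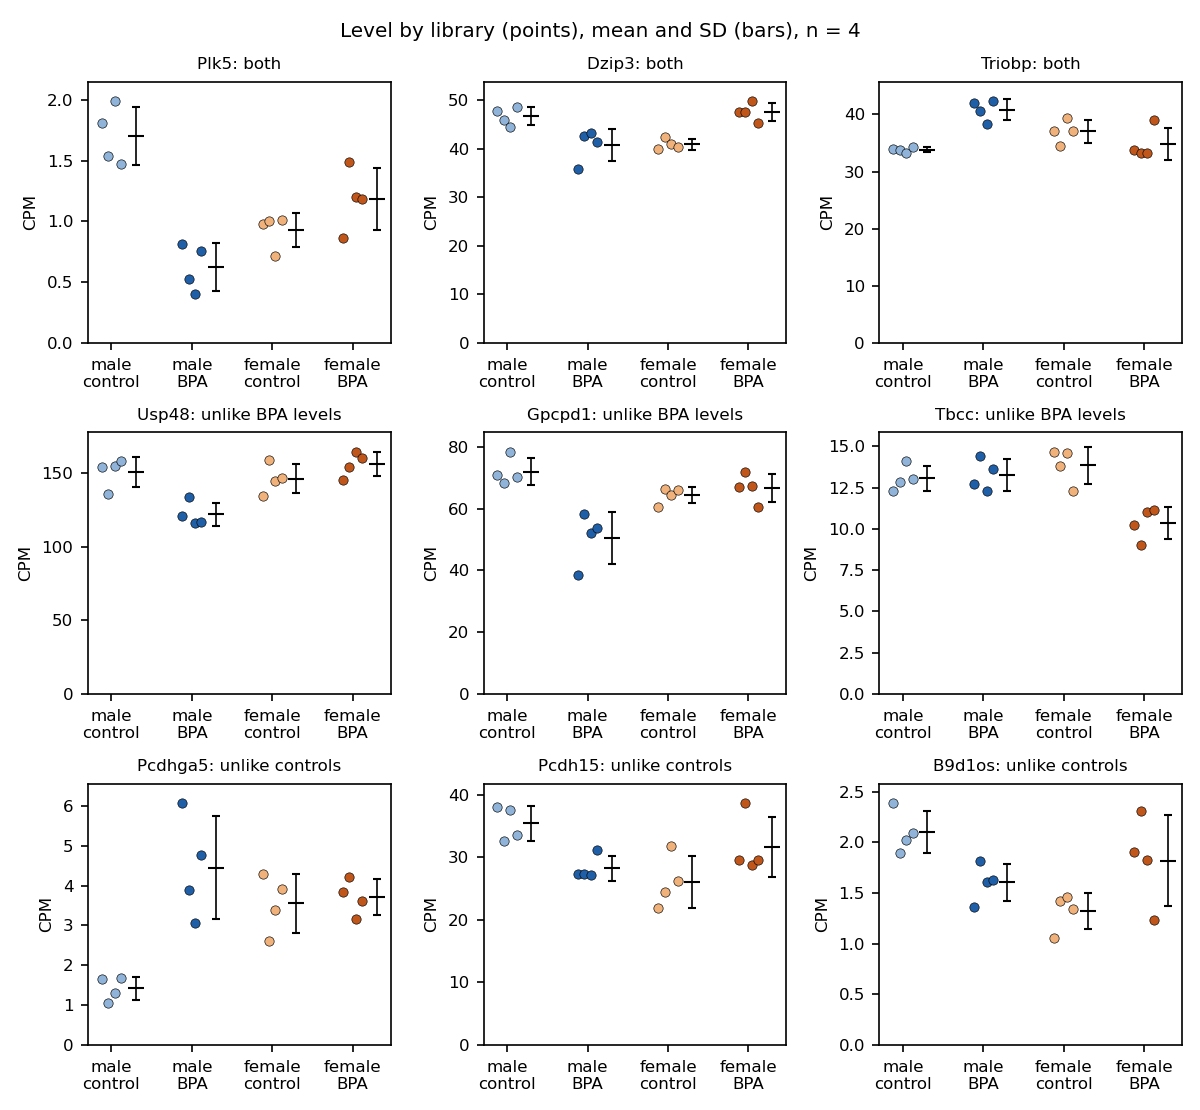
Level of 9 named genes (y axis, CPM from 0) in each of the 16 libraries (points, n = 4 a group) with the mean and SD beside them (bars). The upper row shows genes that drew on controls and BPA levels, the middle row genes with unlike BPA levels, where BPA males (Usp48, Gpcpd1) or BPA females (Tbcc) are low, and the bottom row genes with unlike controls, where the male and female controls differ most.

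Unlike BPA levels were clearest in Usp48, a ubiquitin-specific protease. Control males were at 155, 136, 155 and 159 CPM and control females at 135, 159, 145 and 147 CPM, which overlapped. BPA males were at 121, 134, 116 and 117 CPM, below each of the other 12 libraries, and BPA females at 145, 154, 165 and 160.4 CPM. The difference was 0.40 ± 0.10 (limma-voom p 0.000747), made up of 0.36 between the BPA groups and -0.04 between controls. The female minus male comparison among BPA libraries had a limma-voom adjusted p of 0.132 for this gene, and it was called without male BPA 2 (0.40 ± 0.07, adjusted p 0.0305) and without both male BPA 2 and female BPA 1 (0.44 ± 0.07, adjusted p 0.0443).

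BPA males also stood lowest in 3 other named genes. Gpcpd1, a phosphodiesterase that releases choline from glycerophosphocholine, was at 70.8, 68.4, 78.4 and 70.3 CPM in male controls and 38.6, 58.2, 52.2 and 53.6 CPM in BPA males. In females it was at 60.6, 66.5, 64.4 and 65.9 CPM in controls and 67.1, 71.8, 67.4 and 60.7 CPM after BPA, so the BPA males lay below the other 12 libraries. Its difference was 0.57 ± 0.14 (limma-voom p 0.000885), and 0.45 without male BPA 1. Chd3, a helicase of the NuRD chromatin complex, was at 127 to 155 CPM in BPA males and 179 to 189 CPM in male controls, with 156 to 187 CPM in female controls and 159 to 197 CPM in BPA females, a difference of 0.41 ± 0.11. Arsb, the lysosomal arylsulfatase B of dermatan sulfate breakdown, was at 427 to 437 CPM in BPA males and 478 to 634 CPM in BPA females, around controls at 457 to 592 (males) and 453 to 501 CPM (females), a difference of 0.47 ± 0.13. Of the transcript words of Arsb, 38.5% occur in other genes.

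BPA females were the group apart in Tbcc and Supt20. Tbcc, a cofactor that folds tubulin, was at 10.2, 9.03, 11.01 and 11.1 CPM in BPA females, below the other 12 libraries. Female controls were at 12.3 to 14.7 CPM, male controls at 12.3 to 14.1 CPM and BPA males at 12.3 to 14.4 CPM. Its difference was -0.45 ± 0.12 (limma-voom p 0.00227). Supt20, a subunit of the SAGA coactivator, was at 56.4, 54.7, 55.3 and 55.4 CPM in BPA females, above the other 12 libraries, which lay at 48.6 to 51.4 CPM (male controls), 46.3 to 50.3 CPM (female controls) and 45.3 to 50.2 CPM (BPA males). Its difference was small but narrow, 0.22 ± 0.06 (limma-voom p 0.00312).

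Pdp2 and Mrpl44, both of mitochondria, had values of opposite sign in the sexes. Pdp2, a phosphatase that activates pyruvate dehydrogenase, lay in males at 11.6 to 13.6 CPM without and 12.97 to 16.1 CPM with BPA, but in females at 13.6 to 14.4 CPM without and 10.9 to 12.3 CPM with it, a difference of -0.45 ± 0.11. Mrpl44, of the large mitochondrial ribosomal subunit, was at 10.5 to 12.9 and 12.7 to 14.5 CPM in males and at 12.1 to 13.3 and 10.2 to 11 CPM in females, a difference of -0.46 ± 0.11. In both genes controls and BPA libraries overlapped in males and not in females.

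Among genes with unlike controls, Pcdhga5, a gamma protocadherin that acts in cell adhesion, read 1.65, 1.06, 1.30 and 1.68 CPM in control males, below each of the other 12 libraries. The other groups overlapped: female controls were at 4.29, 2.61, 3.39 and 3.91 CPM, BPA males at 6.07, 3.88, 3.05 and 4.78 CPM and BPA females at 3.85, 4.22, 3.17 and 3.60 CPM. Its difference was -1.53 ± 0.32 (limma-voom p 0.000275), of which 1.29 lay between the controls, with the sign turned, and -0.24 between the BPA groups. Transcripts of the cluster share their last exons, and 45.3% of its words occur in other genes. The 22 genes of the gamma cluster had a median difference of 0.09, with 14 above 0 and 1 other, Pcdhga10, with an unadjusted p under 0.05 (0.36 ± 0.15), though other genes hold 99.0% of its words and its counts are uncertain.

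Pcdh15, a cadherin-type protein found in oligodendrocyte precursors, was at 37.96, 32.5, 37.6 and 33.6 CPM in male controls, above all female controls, at 21.9, 24.4, 31.7 and 26.2 CPM. BPA males were at 27.3, 27.4, 27.2 and 31.2 CPM and BPA females at 29.6, 38.7, 28.7 and 29.5 CPM, and these overlapped. The difference was 0.61 ± 0.16 (limma-voom p 0.00163), and 0.51 without female BPA 2, whose level of 38.7 CPM was the highest of the 16. B9d1os, a transcript antisense to the cilium gene B9d1, had controls of 1.89 to 2.39 (males) and 1.06 to 1.46 CPM (females), which did not overlap, against 1.37 to 1.82 CPM in BPA males and 1.23 to 2.31 CPM in BPA females, a difference of 0.85 ± 0.25. The libraries keep strand, but whether counting used it is not given in the sources used here, so reads of B9d1 may be among them. Asphd2, which carries an aspartate beta-hydroxylase domain, was at 23.6 to 27.4 CPM in male controls, 20.6 to 23.1 CPM in female controls, 19.8 to 23.2 CPM in BPA males and 21.8 to 23.97 CPM in BPA females, a difference of 0.28 ± 0.09.

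Rps3a3 had the largest difference named, -6.80 ± 1.48 (limma-voom p 0.000334), and its values fell into 3 levels that cut across the groups. It is a processed copy, on chromosome 13, of the ribosomal protein gene Rps3a1 on chromosome 3. In GENCODE M21 the 2 transcripts are the same at 786 of 795 aligned bases (98.9%), and 65.15% of the 50-base words of Rps3a3 occur in other genes. A stretch of 150 bases of the coding part, transcript bases 214 to 363 of Rps3a3 and 347 to 496 of Rps3a1, shows how little tells their reads apart; capitals mark the 3 bases that differ.
Rps3a3: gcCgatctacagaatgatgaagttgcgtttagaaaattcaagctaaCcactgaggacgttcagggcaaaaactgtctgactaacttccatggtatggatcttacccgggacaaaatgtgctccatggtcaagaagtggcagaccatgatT
Rps3a1: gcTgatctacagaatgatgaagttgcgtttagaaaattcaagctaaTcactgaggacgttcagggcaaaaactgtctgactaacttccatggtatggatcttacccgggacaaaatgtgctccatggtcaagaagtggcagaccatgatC

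Counts of the copy were near 0 in 3 of the 4 male controls, with 0.0274, 13.6, 0 and 0.0590 CPM in this group. A gene with 3 counts would read 0.0705 to 0.127 CPM, depending on the library. Female controls were at 29.3, 15.4, 13.3 and 14.9 CPM, BPA males at 13.3, 11.9, 15.8 and 29.7 CPM and BPA females at 15.5, 16.5, 15.9 and 30.2 CPM. Thus 10 libraries lay between 11.9 and 16.5 CPM and 3, 1 in each group other than male controls, between 29.3 and 30.2 CPM. Rps3a1 took the opposite order: 14.7 to 16.7 CPM in the 3 male controls with Rps3a3 near 0, 7.02 to 9.25 CPM in the 10, and 0.38 to 0.805 CPM in the 3 highest for Rps3a3. The sum of both ran from 14.8 to 31.0 CPM. The fitted difference rests on male controls under the level of 3 counts and is no measure of size.

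**Figure D3:**
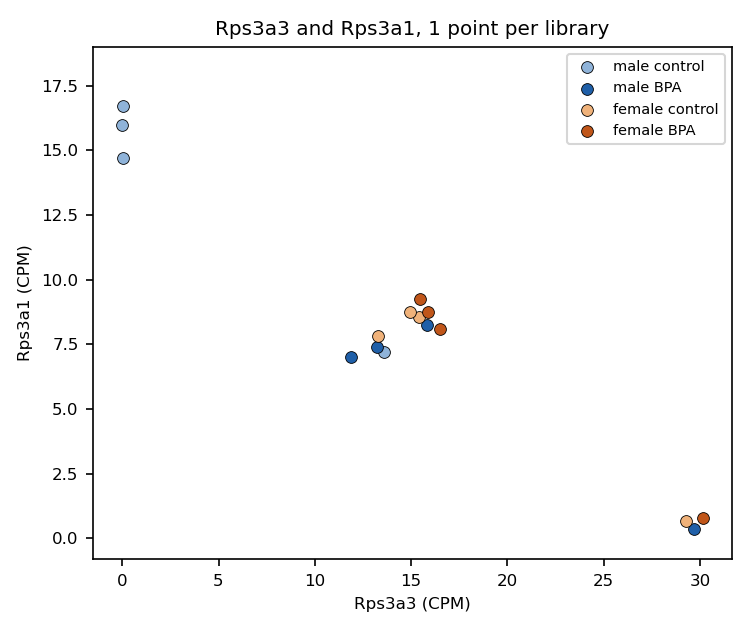
Rps3a3 (x axis, CPM) against Rps3a1 (y axis, CPM), 1 point for each of 16 libraries. The libraries form 3 clusters: 3 male controls at 0 to 0.059 and 14.7 to 16.7 CPM, 10 libraries of all groups at 11.9 to 16.5 and 7.02 to 9.25 CPM, and 3 libraries at 29.3 to 30.2 and 0.38 to 0.805 CPM.

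Counts near 0 in male controls were also seen in 2 genes outside the rule, though in another set of libraries than for Rps3a3. They are named here because the difference called them when female control 4 was left out. Hist1h2al, a histone H2A gene on chromosome 13, was at 0.0274, 0.0394, 0 and 0.0295 CPM in male controls and 7.74, 14.1, 6.60 and 0.0236 CPM in female controls. BPA males were at 6.57 to 16.1 CPM and BPA females at 7.92 to 14.3 CPM. Gm4737, a predicted gene on chromosome 16, was at 0, 0, 0.0664 and 0.0590 CPM in male controls and 0.848, 0.896, 1.24 and 0.0471 CPM in female controls, with 0.705 to 1.39 CPM in BPA males and 0.699 to 1.42 CPM in BPA females. In both genes the same 5 libraries, all male controls and female control 4, were under the level of 3 counts, and the other 11 were above it. Without female control 4 the limma-voom adjusted p was 0.0358 for Hist1h2al and 0.0215 for Gm4737; with all 16 libraries it was 0.999 for both. Other genes hold 67.6% of the words of Hist1h2al and 93.7% of those of Gm4737, so their counts are uncertain.

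The comparison of females and males among BPA libraries changed with 1 library: limma-voom called 0 autosomal genes with all 16 libraries and 12 without male BPA 2. Among these 12, named after their values were seen, were 3 immediate early transcription factors. The part of cell dissociation in their levels was not tested. Fos was at 97.6, 322, 118 and 124 CPM in BPA males, where male BPA 2 was the highest, and at 329.9, 207, 218 and 298 CPM in BPA females. Without BPA it was at 99.9 to 174 (males) and 169 to 208 CPM (females). Without male BPA 2 the female minus male value was 1.20 ± 0.19 (limma-voom adjusted p 0.0305), and with it 0.83. Fosb had 1.44 ± 0.24 (limma-voom adjusted p 0.0344) and Klf4 1.32 ± 0.22 (limma-voom adjusted p 0.0305). None of the 3 was called once female BPA 1 was left out as well: Fos had 1.09 ± 0.19, Fosb 1.30 ± 0.25 and Klf4 1.26 ± 0.23, each with a limma-voom adjusted p of 0.117. In that setting 2 of the 12, Usp48 and Igf1r, were called. The controls of the sexes stood apart in the same direction, by 0.48 for Fos, 0.39 for Fosb and 0.45 for Klf4, and the difference of BPA effects for these 3 genes was 0.34, 0.59 and 0.49. Igf1r, the receptor of insulin-like growth factor 1, was at 28.5, 40.9, 26.6 and 27.3 CPM in BPA males and 36.5, 34.8, 34.9 and 38.6 CPM in BPA females, with controls at 34.1 to 37.4 (males) and 36.9 to 38.4 CPM (females). It had 0.39 ± 0.05 without male BPA 2 (limma-voom adjusted p 0.00969) and 0.24 with it. Of the rest, Rab33b, Mrpl39, Chmp1b, Leprot, Dusp16 and 4930453N24Rik had values of -0.50 to -0.29 on the log2 scale, lower in BPA females, and Tbkbp1 had 0.48.

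Genes in which 1 group of 4 lay wholly above or below the other 12 libraries were few. Some genes do so by chance in any group of 4. The share that chance would give was not computed, so these counts are a description and no test. There were 39 for BPA males (0.248% of autosomal genes), 13 above and 26 below. BPA females had 17 (0.108%), 7 above and 10 below, male controls 23 (0.146%), 16 above and 7 below, and female controls 4 (0.0254%), 3 above and 1 below. Usp48, Gpcpd1, Chd3 and Arsb were among those of BPA males, Tbcc and Supt20 among those of BPA females, and Pcdhga5 among those of male controls. With 1 library of a group left out its count is higher by construction, and for BPA males it was 376 without male BPA 2.

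**Figure D4:**
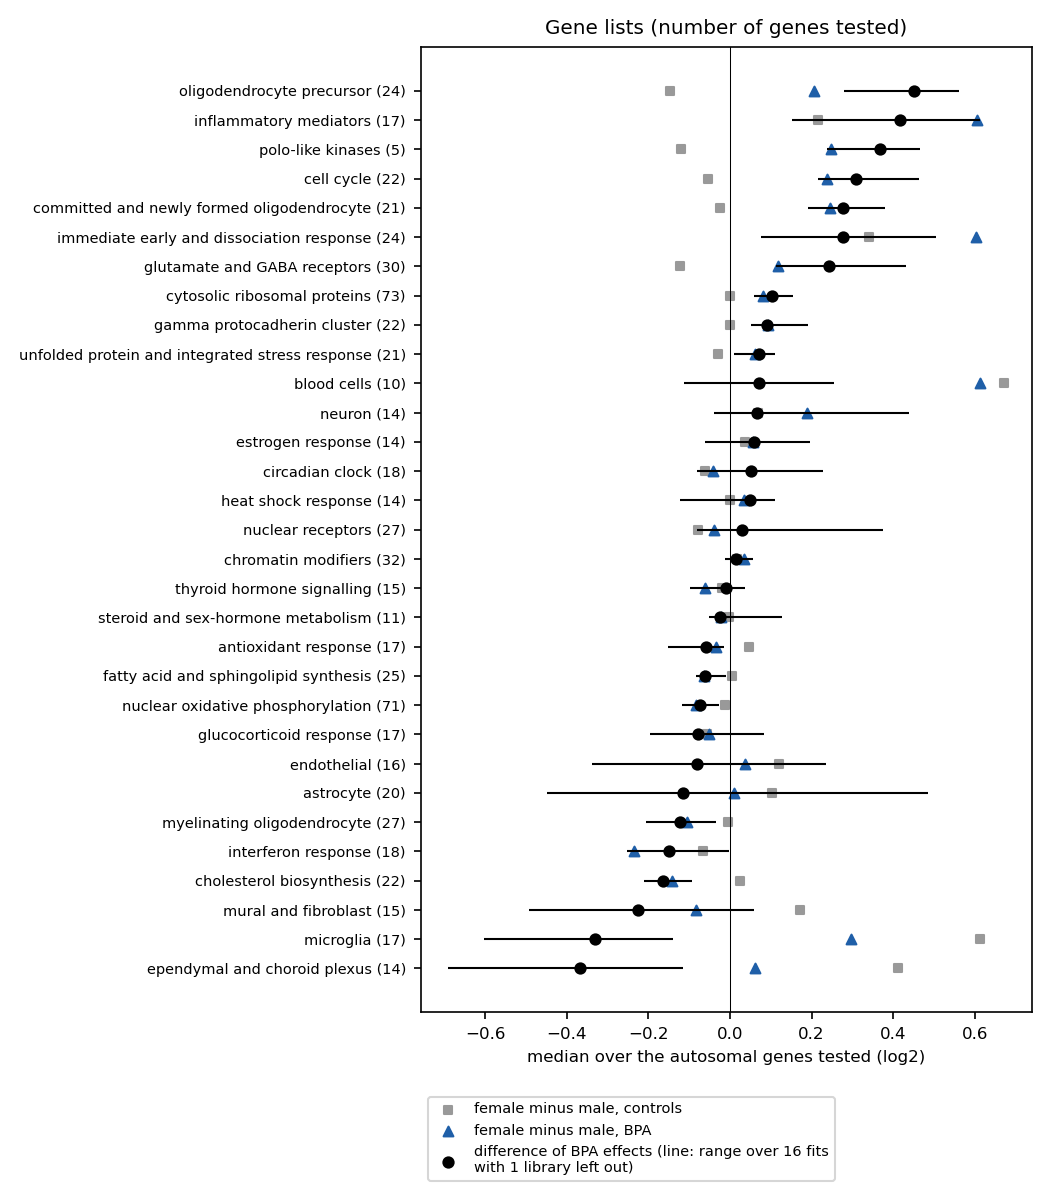
Median over each of 31 gene lists (number of autosomal genes tested in brackets) of the difference of BPA effects (black), of female minus male in controls (grey squares) and in BPA libraries (blue triangles), on the log2 scale; black lines span the 16 fits that leave 1 library out. Precursor genes have the highest black point, at 0.45, and ependymal and choroid plexus genes the lowest, at -0.37.

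Among lists of oligodendrocyte stages, precursor genes had the highest median difference. Of 24 genes, 20 were above 0, with a median of 0.45 against -0.02 over all autosomal genes. An unadjusted p under 0.05 was reached by 9, all above 0, against 4.67% of all autosomal genes. The list was chosen with earlier results of these data known, so this count is a description. The list drew on both sides: its median female minus male value was -0.15 in controls and 0.21 in BPA libraries. Its mean log2 CPM was 6.87, 6.75, 7.02 and 6.75 in male controls and 6.50, 6.79, 6.54 and 6.59 in BPA males. Female controls were at 6.57, 6.68, 6.74 and 6.77 and BPA females at 6.87, 7.19, 6.68 and 6.46. BPA females were spread most, with female BPA 2 highest and female BPA 4 lowest of all 16 libraries, so their range overlapped all other groups. Among BPA males only male BPA 2 reached the range of male controls. Without female BPA 2 the median was 0.28, and without female BPA 4 it was 0.56. Without male BPA 2 it was 0.48, with 21 of 24 genes above 0. In bulk RNA a lower share of precursors in the sort and less RNA per precursor cannot be told apart.

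Pdgfra, the growth factor receptor that defines precursors, was at 183, 132, 211 and 138 CPM in male controls and 86.6, 125, 129 and 124 CPM in female controls. BPA males were at 106, 106, 139.5 and 136 CPM and BPA females at 154, 233, 117 and 102 CPM. The male and female controls did not overlap and the BPA groups did, with a difference of 0.75 ± 0.32 (limma-voom p 0.0321). Sox6, a transcription factor that holds precursors immature, was at 47.2, 52, 47.9 and 48.5 CPM in BPA males, below all male controls, at 61.1, 58.8, 73.6 and 66.6 CPM. Controls of the females were at 53.5 to 64.5 CPM and BPA females at 44.99 to 89.5 CPM, which overlapped all other groups, and the difference was 0.55 ± 0.21. The matrix genes Tnr (0.57 ± 0.22), Vcan (0.50 ± 0.23) and Matn4 (0.45 ± 0.18) and the calcium channel subunit Cacng4 (0.63 ± 0.26) also had an unadjusted p under 0.05, as did the complement-like C1ql1 (0.65 ± 0.30) and Sapcd2 (0.53 ± 0.23). The lineage factors Olig1 and Olig2, which mature cells keep, were at -0.09 ± 0.12 and -0.01 ± 0.14.

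Committed and newly formed oligodendrocyte genes differed in how the value arose. Of 21 genes, 17 were above 0 (median 0.28) and 6 had an unadjusted p under 0.05, against 4.67% of all autosomal genes. By the rule of shares, 18 of the 21 had unlike BPA levels, against 43.8% of all autosomal genes. Members of a list can move together between libraries, so the 18 are not separate results. The median was -0.02 between the controls of the sexes and 0.25 between the BPA groups. List means of BPA males, 8.15 to 8.34, lay below those of male controls, 8.36 to 8.68. Female controls were at 8.33 to 8.51 and BPA females at 8.12 to 8.69, which overlapped each other. Bcas1, which marks newly formed oligodendrocytes, was at 789.6 to 1016 CPM in BPA males, below male controls at 1038 to 1207 CPM and female controls at 1049 to 1176 CPM, with BPA females at 1005 to 1251 CPM and a difference of 0.33 ± 0.12 (limma-voom p 0.0123). Nkx2-2, a transcription factor of early differentiation, had 0.45 ± 0.17, and the kinase Fyn, the actin regulator Cyfip2 and the membrane protein Mpzl1 had 0.46 ± 0.19, 0.48 ± 0.19 and 0.45 ± 0.18. Bmp4, a secreted growth factor, had 0.49 ± 0.23. Gpr17, a receptor of committed precursors, was at 0.36 ± 0.18, with an unadjusted limma-voom p of 0.0586. Without male BPA 2 the list was above 0 in 15 of 21.

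Myelinating genes did not share that sign. Of 27, 7 were above 0 (median -0.12), and 1, the gap junction gene Gjc3, had an unadjusted p under 0.05 (0.27 ± 0.12). Mbp had a difference of 0.09 ± 0.17 and Mog, a surface protein of mature myelin, one of -0.18 ± 0.16, with 95% intervals of -0.26 to 0.45 and -0.51 to 0.15. Car2, the carbonic anhydrase of oligodendrocytes, had -0.43 ± 0.26. Cholesterol synthesis genes, which supply myelin lipid, were below 0 in 22 of 22, with a median of -0.16, from 0.02 in controls and -0.14 among BPA libraries. Only Stard4, a sterol transporter, had an unadjusted p under 0.05 (-0.53 ± 0.24). List means were 7.45 to 7.76 in BPA females and 7.69 to 7.80 in female controls, and without female BPA 2 the median was -0.09.

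**Figure D5:**
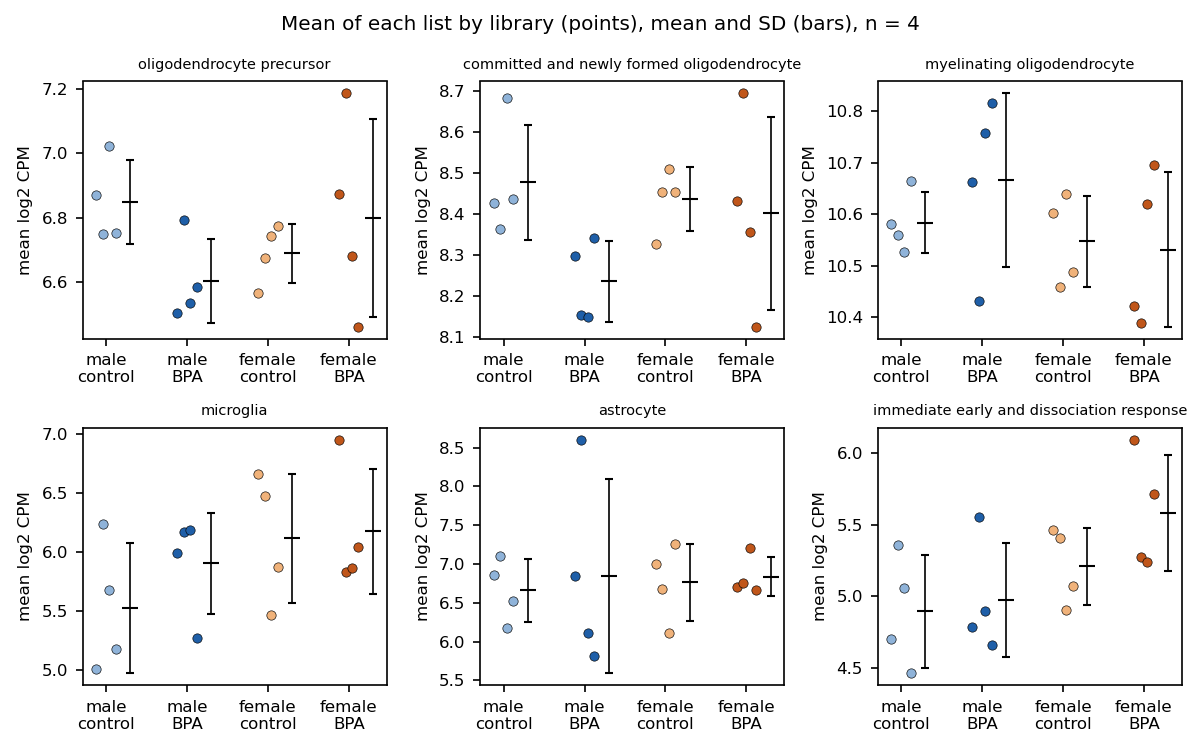
Mean log2 CPM (y axis, not from 0) of 6 gene lists in each of 16 libraries (points, n = 4 a group) with the mean and SD (bars). Precursor genes range from 6.46 to 7.19, both ends in BPA females; BPA males are low in committed and newly formed genes, and male BPA 2, at 8.60, stands apart in astrocyte genes.

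Among other cell types, microglial genes were below 0 in 17 of 17, with a median of -0.33. Of the 17, 16 had unlike controls, against 32.6% of all autosomal genes, and here too members can move together. Females stood above males in 17 of the 17 in controls and in 16 in BPA libraries, so this class does not mean alike BPA levels. The median was 0.61 between female and male controls and 0.30 between the BPA groups. List means were 5.01, 6.24, 5.68 and 5.18 in male controls and 6.66, 6.47, 5.47 and 5.87 in female controls. BPA males were at 5.99, 6.17, 6.19 and 5.28 and BPA females at 6.95, 5.84, 5.87 and 6.04, so all groups overlapped. The median was -0.60 without female BPA 1 and -0.14 without male control 1. Apart from Sall1 (-0.34 ± 0.11), a transcription factor of microglial identity, no member had an unadjusted p under 0.05. C1qa, of complement, had -0.41 ± 0.42. Astrocyte genes were above 0 in 2 of 20 with all libraries (median -0.11) and in 20 of 20 without male BPA 2 (median 0.49). Endothelial genes went from 5 to 14 of 16, with medians of -0.08 and 0.24. Mural and fibroblast genes were above 0 in 5 of 15 (-0.23) and without male BPA 2 in 8 (0.03), ependymal and choroid plexus genes in 3 of 14 (-0.37) and 6 (-0.14), and neuronal genes in 8 of 14 (0.07) and 11 (0.44). Blood cell genes were above 0 in 5 of 10, with a median of 0.07 and, without female BPA 1, of -0.11. The part of these cells in the values of single genes was not tested.

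Immediate early, inflammatory, cell cycle and unfolded protein response genes were mostly above 0. Other stress lists, given below, were mixed or mostly lower: heat shock (8 of 14 above 0), glucocorticoid (7 of 17), interferon (6 of 18) and antioxidant (4 of 17). Genes of the immediate early and dissociation response list were above 0 in 23 of 24 (median 0.28), none with an unadjusted p under 0.05. In that list females stood above males in controls (0.34) as well as after BPA (0.60). The part of cell dissociation in these levels was not tested. Without female BPA 1 the count was 15 of 24 and the median 0.08. Without male BPA 2 they were 23 and 0.51, and without both libraries 21 and 0.29. Inflammatory mediators were above 0 in 15 of 17 (median 0.42), and in 10 without female BPA 1. The chemokine gene Cxcl2 was at 4.22 to 10.1 CPM in BPA females and 2.43 to 4.29 CPM in female controls (0.97 ± 0.44, limma-voom p 0.0444). Ptgs2, the inducible cyclooxygenase, was at 1.27 to 1.58 CPM in BPA females, above the other 12 libraries, which reached 1.20 CPM (0.49 ± 0.24). Cell cycle genes were above 0 in 21 of 22 (median 0.31), with no unadjusted p under 0.05. Mcm6, of the replication helicase, had 0.50 ± 0.24. Unfolded protein response genes were above 0 in 15 of 21 (median 0.07), and without female BPA 1 in 12 (median 0.01). The chaperone Hspa5 was at 0.29 ± 0.18.

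Energy and translation genes had small medians. Nuclear genes of oxidative phosphorylation were above 0 in 13 of 71 (median -0.07), and 2 of the 71, each below 0, had an unadjusted p under 0.05. Cytosolic ribosomal protein genes were above 0 in 48 of 73 (median 0.10). Of the 73, 5 had an unadjusted p under 0.05, against 4.67% of all autosomal genes. Among the 5 was Rpl10a (0.35 ± 0.14), 20.8% of whose words occur in other genes. Glutamate and GABA receptor genes were above 0 in 22 of 30 (median 0.24). Of the 30, 3 had an unadjusted p under 0.05, all above 0, against 4.67% of all autosomal genes. The AMPA receptor gene Gria4 had controls of 107 to 109 (males) and 91.03 to 99.5 CPM (females), which did not overlap (0.28 ± 0.10, limma-voom p 0.0149). Without male BPA 2 the list was above 0 in 28 of 30.

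Hormone-related lists had medians near that of all autosomal genes with all 16 libraries. Nuclear receptors were above 0 in 15 of 27 (median 0.03), estrogen response genes in 8 of 14 (0.06), thyroid hormone signalling genes in 7 of 15 (-0.01) and steroid metabolism genes in 5 of 11 (-0.03), none with an unadjusted p under 0.05. Without male BPA 2 the counts were 21 of 27 (0.38), 10 of 14 (0.20), 11 of 15 (0.04) and 6 of 11 (0.09). Esr1, the estrogen receptor alpha gene, was at 0.192 to 0.276 CPM in male controls, 0.106 to 0.330 in female controls, 0.109 to 0.473 in BPA males and 0.122 to 0.2996 in BPA females. Its difference of 0.05 ± 0.65 had a 95% interval of -1.32 to 1.43, more than 2-fold to either side. Thra, the main thyroid hormone receptor gene of brain, was far better measured, at 0.05 with an interval of -0.18 to 0.28. The glucocorticoid-induced gene Ddit4 was at 175 to 230.0 CPM in BPA females and 215 to 320.2 CPM in BPA males, with controls at 236 to 339 (males) and 238 to 276 CPM (females), a difference of -0.42 ± 0.19 (limma-voom p 0.0389). The clock gene Arntl had -0.28 ± 0.13.

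Among the remaining lists, medians were -0.06 for fatty acid and sphingolipid synthesis (9 of 25 above 0), 0.05 for the heat shock response (8 of 14, but 4 of 14 and -0.12 without male BPA 2) and -0.15 for the interferon response (6 of 18, and -0.25 without female BPA 1). Glucocorticoid response genes had -0.08 (7 of 17, and 10 of 17 with 0.08 without male BPA 2), chromatin modifiers 0.01 (19 of 32), antioxidant genes -0.06 (4 of 17) and the circadian clock 0.05 (10 of 18, and 14 of 18 with 0.23 without male BPA 2). Of the 5 polo-like kinases, 4 were above 0, with a median of 0.37; Plk2, induced by synaptic activity, had 0.37 ± 0.21. Apart from Plk5, Ddit4 and Arntl, no member of these lists had an unadjusted p under 0.05.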

How the data were processed

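RNA was sequenced from 16 libraries with a stranded poly(A) protocol, per the labels' protocols. The submitters' processing notes list HTSeq 0.6.1p1, STAR 2.5.3a, bcl2fastq 2.20.0.422 and the mm39 build, and the strand setting of the counting is not given in the sources used here. Values are raw counts per gene as deposited, and the table's other 32 columns of per-library values were not used. Symbols and chromosomes came from GENCODE M21 (31717 of 32207 genes matched), an older build, so no coordinates are printed.

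Genes were kept with a total of 15 counts and enough libraries at or above a cutoff in CPM. The cutoff equalled 10 counts at the median library size, in as many libraries as the smallest group has. A gene high in 1 group alone could thus pass. Counts were scaled by the trimmed mean of M-values, and fitted as 4 groups with limma-voom (limma 3.58.1, R 4.3.3, robust empirical Bayes, 12 residual degrees of freedom). Benjamini-Hochberg adjustment ran over all genes tested, at a threshold of 0.05. limma-voom took the place of a planned negative binomial test, which was not run. On simulated counts with 200 genes changed, the fit called 13.4% of 1.5-fold, 55.2% of 2-fold and 97.0% of 4-fold changes of this difference over 16339 genes. Every simulated gene had the same spread between libraries (dispersion 0.02), with the change placed in BPA females alone. No simulated library stood apart as male BPA 2 does, so rates in these data may be lower. Shared 50-base words were counted over the M21 transcripts.

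Named genes are the 24 with the smallest p, the 6 smallest in each class and up to 2 from each of 31 lists, all averaging 1 CPM or more, and 10 chosen by hand at any level. Members and lists were chosen with earlier results of these data known. Some genes selected by the rule are not reported here. Comparisons share control libraries, so none was correlated with another. The split by sex and the list counts without single libraries were added after seeing the data.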

Additional observations from a re-analysis of the deposited data

Results flagged for a closer look

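In each group of 4 libraries, the highest or lowest value was flagged where its gap to the nearest other library was large against the group's range. Chance flags about 1 in 20 groups, and 24 of 244 were flagged here (9.84%).

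Among genes, Plk5 was low in female control 3, at 0.717 CPM. Rps3a3 was high in male control 2 at 13.6 CPM, in female control 1 at 29.3 CPM and in female BPA 4 at 30.2 CPM. Triobp was high in female BPA 4, at 39.0 CPM, and Pdp2 was low in male control 1, at 11.6 CPM. Pcdh15 was high in male BPA 4 at 31.2 CPM and in female BPA 2 at 38.7 CPM. Dscaml1 stood apart in female control 3, at 78.9 CPM, and Bend4 in female control 1, at 3.53 CPM, and in male BPA 1, at 2.82 CPM. Supt20 was low in male BPA 1, at 45.3 CPM, and Pdgfra in female control 1, at 86.6 CPM.

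Among list means on the log2 CPM scale, female control 3 was flagged for glucocorticoid response genes at 4.60, estrogen response genes at 2.98 and circadian clock genes at 4.29. Female control 4 was flagged for interferon response genes at 1.60. Male control 2 was flagged for unfolded protein response genes at 5.68 and male control 3 for mural and fibroblast genes at 1.162. Among BPA males, male BPA 2 was flagged for glutamate and GABA receptor genes at 3.75 and male BPA 4 for polo-like kinases at 2.55. Among BPA females, female BPA 1 was flagged for chromatin modifiers at 5.71, female BPA 2 for steroid metabolism genes at 3.09 and female BPA 3 for astrocyte genes at 7.21.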

How the results depend on the processing

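With 4 libraries a group, small differences were seldom called: on simulated counts 13.4% of 1.5-fold changes were. Those counts had 1 spread for all genes and no library that stood apart. The difference of BPA effects had 0 called genes under each alternative run except without female control 4, where it had 3 (range 0 to 3 with 1 library left out). Its genes with an unadjusted p under 0.05, 735, were 1729 with no filter on low counts, 1181 without both male BPA 2 and female BPA 1, and 529 to 1466 with 1 library left out, the last without male BPA 2. The cause of such shifts was not tested, apart from more genes being tested with no filter.

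With no filter, called genes were 4 for female minus male in controls, 1 in BPA libraries, 2 for BPA in males and 2 in females, and those with an unadjusted p under 0.05 were 1999, 1587, 1940 and 2039. Without both libraries, 2 genes were called for female minus male in BPA libraries, with 1594 under that p, and 0 for BPA in males. With 1 library left out, called genes ranged from 0 to 3 in controls (1 with all), 0 to 12 in BPA libraries (0 with all) and 0 to 3 for BPA in males (1 with all), and those under that p from 279 to 696 in controls and 650 to 2310 in BPA libraries.

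Genes with unlike controls, 73, were 286 with no filter, 44 with a stricter one, 142 by the tests, 220 with a bound of 0.5, and 52 to 131 with 1 library left out. Those with unlike BPA levels, 272, were 442 with no filter, 613 without both libraries, 515 with a bound of 0.5, and 175 to 825 with 1 left out. Those drawing on both, 390, were 1001 with no filter and 18 by the tests. Groups standing apart had 24 to 101 (male control), 5 to 31 (female control), 41 to 376 (male BPA) and 18 to 84 (female BPA) genes with 1 library left out.

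The difference of Mbp changed sign without male BPA 2 (-0.0322) and without both libraries (-0.00914), and ranged from -0.0322 to 0.166 with 1 library left out. That of Thra did so too (-0.0273 and -0.0207, range -0.0273 to 0.104), and that of Esr1 ranged from -0.27 to 0.45. Replicate numbers did not pair the libraries: the deviations of 24 same-numbered pairs correlated at -0.243 to 0.232, 7 over 0.1, and 4 of 16 libraries correlated best with their own number. With a replicate block the difference had 0 called genes, 726 with an unadjusted p under 0.05, and a difference of Esr1 of -0.0136. The planned negative binomial tests were not run.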
